A study of Arabidopsis thaliana with 12 samples.

Results

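The pnet2_abc triple mutant was set against the pnet2_ac double mutant across all genes, to describe what the added mutation in B brings to plants already mutant for A and C. The comparison takes the 3 pnet2_abc and the 3 pnet2_ac libraries, 6 of the 12 libraries sequenced, and 23330 of the 27436 genes counted passed the filter on low counts. All plants were untreated whole seedlings of Arabidopsis thaliana, ecotype Col-0, aged 7 days, grown on Murashige and Skoog medium with sucrose. WT (wild type) and pnet2_bc, 3 libraries each, serve only to say which differences of pnet2_ac were its own and whether they were still there in the triple mutant. Mutations in A and C are thus shared by both groups compared here, and B is mutant in pnet2_abc alone. The sources used here do not name the alleles or say whether each removes the protein, and each mutant is represented by 1 line name.

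PNET2 proteins are membrane proteins of the plant nucleus and carry a domain named DUF2215. The nuclear envelope separates chromatin from cytoplasm, holds the nuclear pores through which RNA and proteins pass, and is lined on its inner face by lamina proteins, which in plants are the CRWN family. SUN proteins of the inner membrane bind KASH proteins of the outer membrane, such as the WIP proteins, and so tie the nucleus to the cytoskeleton.

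Libraries held 65758625 to 115881203 counts, with pnet2_ac replicate 1 the deepest, so that 3 counts, the most that a count of 0 allows, stand for 0.0262 to 0.0436 CPM (counts per 1000000, on library sizes adjusted by the TMM method). Counts of replicates in the same group were further apart than sampling noise allows, with a chi-square of 31.51 to 49.75 per degree of freedom, and each was kept as 1 replicate. Whether replicates were separate batches of plants is not stated, so p-values measure the spread between these samples. Ribosomal RNA genes took 0.365 to 0.475% of counts in pnet2_abc and 0.0955 to 0.116% in pnet2_ac. All 3 tested were higher in the triple mutant, where 30.7% of all tested genes were higher. Plastid genes took 0.0405 to 0.0548% in pnet2_abc and 0.0703 to 0.101% in pnet2_ac. The part of these shares in the gene differences below was not tested.

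Levels below are CPM per library. A fold change is the log2 ratio of pnet2_abc over pnet2_ac with its standard error (SE), so a negative value is lower in the triple mutant. A gene is called at an adjusted p under 0.05, with p from edgeR's quasi-likelihood test after Benjamini-Hochberg adjustment over all 23330 genes. An SD is over 3 libraries. The 35 gene lists used below were chosen with earlier results of these data known. Their counts beside the shares of all genes are therefore descriptions, not independent results.

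The 3 Arabidopsis genes with the DUF2215 domain were all detected in every library, and each differed between the triple mutant and pnet2_ac. AT1G28760 (chr1:10103081-10104883, plus strand in TAIR10.1) was counted at 5.82, 4.78 and 5.40 CPM in pnet2_ac and 45.85, 54.05 and 42.4 CPM in pnet2_abc (log2 fold change 3.15 ± 0.14, adjusted p = 7.17e-10). The triple mutant's libraries stood far above the other 9, since WT had 3.65, 3.79 and 4.48 CPM and pnet2_bc 3.81, 4.71 and 4.80 CPM. AT3G49840 (chr3:18484513-18487043, plus strand) was counted at 6.39, 7.31 and 6.36 CPM in pnet2_ac and 2.099, 2.31 and 2.09 CPM in pnet2_abc (log2 fold change -1.63 ± 0.18, adjusted p = 3.92e-06), so it was lower without overlap. AT5G67610 (chr5:26960904-26963736, minus strand) was counted at 24.1, 22.6 and 20.9 CPM in pnet2_ac and 12.01, 11.01 and 10.65 CPM in pnet2_abc (log2 fold change -1.01 ± 0.10, adjusted p = 1.45e-06). This gene was also below WT in pnet2_bc, with 14.7, 15.4 and 14.35 CPM against 22.3, 18.9 and 23.64 CPM in WT (adjusted p = 0.032), while pnet2_ac was not called against WT (adjusted p = 0.863). None of the 3 was near 0 in a mutant, and the sources used here do not tie the letters A, B and C to them, so gene-level counts do not check the genotype labels.

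Most expressed genes differed between the triple and the double mutant. Of the 23330 genes tested, 14672 were called (62.9%), 7156 higher in pnet2_abc (30.7%) and 7516 lower (32.2%). Called genes at least 2-fold apart numbered 7325 (31.4%), of which 3298 were higher (14.1%) and 4027 lower (17.3%). At least 4-fold, 1553 were higher and 1346 lower, and at least 16-fold 511 were higher and 241 lower. The libraries of the 2 genotypes did not overlap for 16335 genes (70.0%). A lack of overlap in a gene named below, many picked for their large folds, is read against that share. For scale, the same test called 266 genes between pnet2_ac and WT (1.14%) and 60 between pnet2_ac and pnet2_bc (0.257%). Against those groups the triple mutant differed at 15054 genes from WT (64.5%) and at 14943 from pnet2_bc (64.1%), comparisons that share the triple mutant's libraries.

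The median log2 fold change over all tested genes was -0.01, and 48.8% of called genes were higher in pnet2_abc. That split rests on the scaling. Library size alone gave 56.3% higher with a median of 0.12, and TPM values gave 57.1 to 59.5% higher. Calls were spread evenly over the nuclear chromosomes, with 30.1 to 31.9% of the genes of each higher and 31.3 to 33.1% lower. Among genes averaging under 1 CPM, 10.4% were higher and 13.2% lower, against 41.8% and 44.3% of genes at 100 CPM or more. The most abundant transcripts took less of the triple mutant's libraries. The 5 most abundant genes held 1.96 to 2.13% of counts in pnet2_abc and 4.87 to 5.42% in pnet2_ac, and the 100 most abundant held 13.5 to 14.5% and 21.4 to 22.8%. Of 18 small nuclear RNA genes tested, 11 were higher and 1 lower (median 3.12), where 30.7% of all tested genes were higher and 32.2% lower. The share of ribosomal RNA was also larger in pnet2_abc, and whether the 2 go together was not tested.

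**Figure D1:**
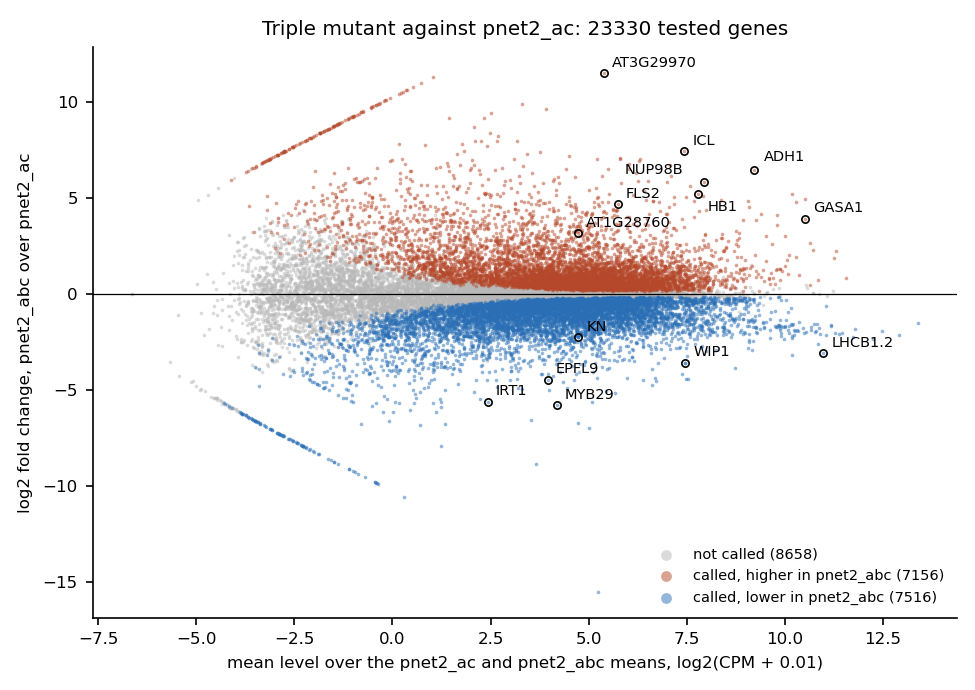
Each point is 1 of the 23330 tested genes, with its mean level over pnet2_ac and pnet2_abc on the x axis (log2 CPM) and the log2 fold change of pnet2_abc over pnet2_ac on the y axis. Red points are the 7156 genes called higher in pnet2_abc, blue points the 7516 called lower, and the straight streaks at top and bottom left are genes with no count in 1 of the groups. Both colours reach down to small fold changes across the range of levels.

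Some genes went from almost nothing in pnet2_ac to clear expression in the triple mutant. Under 0.2 CPM in each pnet2_ac library and at least 5 CPM in each pnet2_abc library were 20 genes, and 2 genes showed the reverse. AT3G29970, which encodes a B12D protein, had 0.0175, 0 and 0.0724 CPM in pnet2_ac and 84.9, 97.9 and 69.1 CPM in pnet2_abc, that is 7 counts in all against 18856. GRP19, a glycine-rich protein gene, had 4 counts in the pnet2_ac libraries together and 9.72, 12.1 and 12.4 CPM in pnet2_abc. With so few counts in pnet2_ac their fitted folds are not sized here. Better measured on both sides, ICL was counted at 1.22, 2.07 and 2.84 CPM in pnet2_ac and 253, 371 and 408 CPM in pnet2_abc (log2 fold change 7.42 ± 0.38, adjusted p = 2.30e-09). ICL is isocitrate lyase of the glyoxylate cycle, which turns stored fat into sugar in germinating seedlings. RRTF1, a redox-responsive transcription factor gene, was counted at 0.297, 0.119 and 0 CPM in pnet2_ac and 27.9, 33.8 and 18.65 CPM in pnet2_abc (log2 fold change 7.41 ± 0.80, adjusted p = 2.74e-06). HA9, a plasma membrane proton pump gene, was counted at 0.0524, 0.106 and 0.0579 CPM in pnet2_ac and 15.8, 20.8 and 17.8 CPM in pnet2_abc (18 counts against 4093). In all of these the triple mutant's libraries lay above every pnet2_ac library, which the choice of the largest rises required.

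Among the largest falls, AT1G13650, an uncharacterized protein gene, was counted at 60.3, 61.6 and 69.5 CPM in pnet2_ac and 0.613, 0.383 and 0.494 CPM in pnet2_abc (log2 fold change -6.997 ± 0.17, adjusted p = 2.58e-11). LOG1, of a family of cytokinin-activating enzymes, was counted at 68.6, 60.6 and 70.3 CPM in pnet2_ac and 1.85, 0.667 and 1.42 CPM in pnet2_abc (log2 fold change -5.65 ± 0.25, adjusted p = 7.13e-10). AT4G21650, a subtilase gene, was counted at 24.5, 22.5 and 21.8 CPM in pnet2_ac and 0.245, 0.184 and 0.289 CPM in pnet2_abc (log2 fold change -6.56 ± 0.22, adjusted p = 9.92e-11). Only traces of these 3 transcripts were left in the triple mutant. AT1G66100 was counted at 38.6, 20.8 and 16.45 CPM in pnet2_ac and 0.0545, 0 and 0.09645 CPM in pnet2_abc, 1 of the 2 genes almost without counts in the triple mutant. The other, the cineole synthase gene AT3G25830 (TPS-CIN), had 20152 counts in pnet2_ac and 0 in pnet2_abc, at least 5880-fold lower against a floor of 3 counts over the group. It is uncertain, because pnet2_bc replicates 2 and 3 also had 0, pnet2_bc replicate 1 had 83.6 CPM, and a near-identical copy next to it, AT3G25820, kept 39.5, 21.6 and 14.6 CPM in pnet2_abc against 86.0, 100 and 63.9 CPM in pnet2_ac.

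Nuclear genes for photosynthesis were lower in the triple mutant throughout. All 34 tested genes of the photosystems and their antennae were called lower, as were all 17 Calvin cycle genes and 15 of 16 chlorophyll synthesis genes, with none higher, where 32.2% of all tested genes were lower. Median log2 fold changes were -1.79, -1.95 and -1.61. LHCB1.2, an antenna protein of photosystem II, was counted at 3655, 3331 and 3893 CPM in pnet2_ac and 446.5, 288 and 553.5 CPM in pnet2_abc (log2 fold change -3.08 ± 0.18, adjusted p = 8.68e-09). LHCA1, an antenna protein of photosystem I, was counted at 3074, 3405 and 3025 CPM in pnet2_ac and 484, 558.5 and 505 CPM in pnet2_abc (log2 fold change -2.62 ± 0.078, adjusted p = 5.08e-11). PORC, which makes chlorophyllide in the light, was counted at 197, 166 and 173 CPM in pnet2_ac and 30.9, 18.5 and 30.2 CPM in pnet2_abc (log2 fold change -2.75 ± 0.16, adjusted p = 6.21e-09), and GUN4, which helps the magnesium chelatase, at 332, 333 and 371 CPM in pnet2_ac and 62.9, 68.7 and 67.9 CPM in pnet2_abc (log2 fold change -2.38 ± 0.074, adjusted p = 6.37e-11). Pnet2_abc lay below pnet2_ac in all 4 without overlap, where 70.0% of all tested genes did not overlap. The smallest called falls were PORB, another protochlorophyllide reductase, with means of 107 to 77.8 CPM (-0.46), and CP12-1, a Calvin cycle regulator (-0.76). PORA, the third reductase of that kind, had 0.617 and 2.78 CPM and was not called. GLK1 and GLK2, transcription factors that switch on photosynthesis genes, were lower too (-1.19 and -2.06). Genes of the RBCS and LHCB1 families have near-identical copies, so the split of reads within each is uncertain. In whole seedlings, fewer cells of a type and less RNA per cell cannot be told apart.

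The summed level of the 34 photosystem genes was 84510 to 88720 CPM over the pnet2_ac libraries and 19950 to 23950 CPM over the pnet2_abc libraries, ranges that lie far apart. Against WT, no gene of these 3 lists was higher and 1 was lower in pnet2_ac (a Calvin cycle gene), with list medians of -0.15 to -0.21.

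The letters GATAAG, the I-box found in promoters of light-regulated genes, were looked for on both strands from 250 bases before to 50 bases after the annotated gene start. They stood in 15 of 34 photosystem promoters (44.1%) and in 14.8% of the promoters of all 22065 tested protein-coding genes with a window. LHCA1 was the most reduced photosystem gene with the I-box in the 250 bases before its start. That stretch is shown, from the RefSeq annotation and genome of TAIR10.1, with the I-box (GATAAG, or CTTATC for the other strand) in capitals.
LHCA1 (chr3:20341177-20341426, minus strand): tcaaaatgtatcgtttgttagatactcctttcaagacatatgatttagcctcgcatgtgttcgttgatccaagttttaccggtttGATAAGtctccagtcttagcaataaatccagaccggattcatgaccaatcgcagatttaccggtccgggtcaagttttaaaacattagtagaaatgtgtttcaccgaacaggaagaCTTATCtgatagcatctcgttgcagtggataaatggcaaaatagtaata
A match describes these letters and is no sign of binding.

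**Figure D2:**
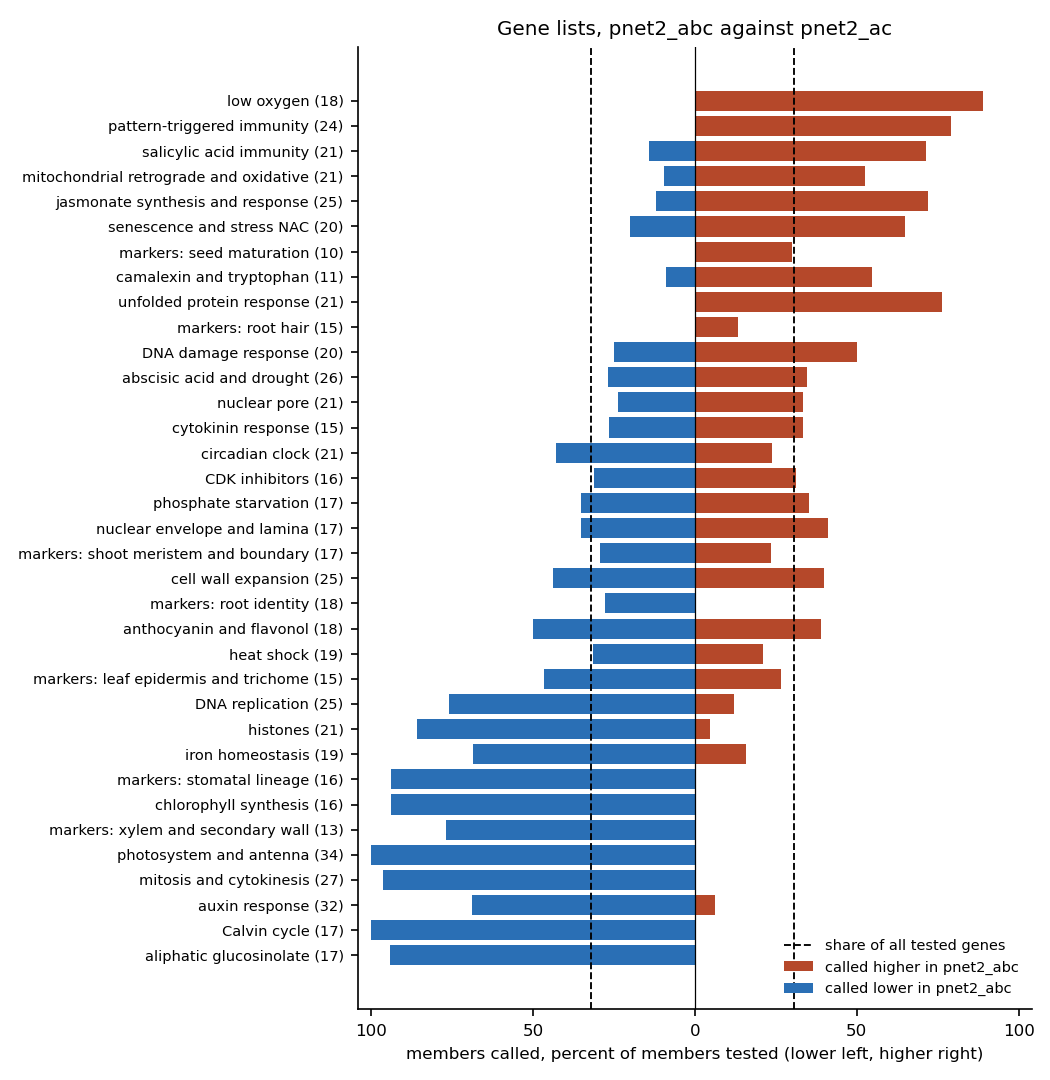
Bars give the percent of tested members of each gene list called higher (right, red) or lower (left, blue) in pnet2_abc against pnet2_ac, with the number tested in brackets. Lists are sorted by their median log2 fold change, and dashed lines mark the share of all tested genes called higher (30.7%) and lower (32.2%). The lists were chosen with earlier results of these data known, so the bars are descriptions. Photosynthesis, mitosis, auxin and aliphatic glucosinolate genes sit at the bottom, and low-oxygen and immunity genes at the top.

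Genes of cell division were lower, mitosis more than DNA replication. Of 27 mitosis and cytokinesis genes tested, 26 were called lower and none higher (median -1.81), where 32.2% of all tested genes were lower. Of 25 DNA replication genes, 19 were lower and 3 higher (median -0.52). KN (KNOLLE), a syntaxin that builds the cell plate, was counted at 44.7, 44.7 and 42.1 CPM in pnet2_ac and 10.8, 8.47 and 8.295 CPM in pnet2_abc (log2 fold change -2.26 ± 0.12, adjusted p = 3.53e-09). CDC20.1, an activator of the anaphase-promoting complex, was counted at 59.05, 54.1 and 51.3 CPM in pnet2_ac and 12.8, 8.155 and 9.995 CPM in pnet2_abc (log2 fold change -2.41 ± 0.14, adjusted p = 8.63e-09), and CYCB1;2 (AT5G06150), a mitotic cyclin, at 28.8, 24.5 and 22.15 CPM in pnet2_ac and 6.69, 4.30 and 7.02 CPM in pnet2_abc (log2 fold change -2.07 ± 0.18, adjusted p = 2.98e-07). In all 3 the pnet2_abc libraries lay below the lowest pnet2_ac library, where 70.0% of all tested genes did not overlap. CYCB1;1, a B-type cyclin that also responds to DNA damage, was the exception, with 7.44 and 8.455 CPM and no call.

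MCM6, a subunit of the replicative helicase, was counted at 21.9, 25.7 and 26.55 CPM in pnet2_ac and 9.17, 8.62 and 9.995 CPM in pnet2_abc (log2 fold change -1.42 ± 0.16, adjusted p = 3.94e-06), and MCM7, of the same helicase, had means of 45.9 to 16.4 CPM (-1.49). All 6 MCM subunits tested were lower, the others by -0.88 (MCM5), -0.52 (MCM3), -0.50 (MCM4) and -0.48 (MCM2). E2FC, which restrains division, ORC6 of the origin complex and TSO2, a ribonucleotide reductase subunit, were the 3 that were higher (0.62, 0.59 and 0.36). Histone genes, transcribed largely in S phase, were lower at 18 of 21 and higher at 1 (median -0.63), against 32.2% of all genes lower.

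The letters of the E2F site (TTCCCGC or TTGGCGC, both strands) stood in 13 of 25 DNA replication promoters (52%) and in 2.49% of all promoters. AACGG, the core of the mitosis-specific activator element bound by MYB3R factors, stood at 2 or more places in 12 of 27 mitosis promoters (44.4%) and in 5.24% of all. The stretches below are the 250 bases before the start of the most reduced gene of each list that holds the motif there, with E2F letters in capitals for MCM6 and AACGG or CCGTT for CYCB1;2.
MCM6 (chr5:18010668-18010917, minus strand): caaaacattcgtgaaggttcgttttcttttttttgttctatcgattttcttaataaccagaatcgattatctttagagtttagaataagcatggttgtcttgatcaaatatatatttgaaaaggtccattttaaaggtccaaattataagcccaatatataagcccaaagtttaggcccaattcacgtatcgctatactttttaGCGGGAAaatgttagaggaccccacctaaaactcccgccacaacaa
CYCB1;2 (chr5:1861704-1861953, minus strand): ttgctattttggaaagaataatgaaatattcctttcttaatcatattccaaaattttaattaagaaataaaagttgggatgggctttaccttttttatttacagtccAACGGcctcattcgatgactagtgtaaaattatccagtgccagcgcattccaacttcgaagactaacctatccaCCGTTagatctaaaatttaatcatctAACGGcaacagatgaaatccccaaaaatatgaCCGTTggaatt
CYCB1;2 has 4 such places in this stretch and MCM6 has 1 E2F match.

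Some genes that hold back the cell cycle and some of the DNA damage response were much higher in the triple mutant. As a list, the 16 CDK inhibitor genes were called at about the share of all genes, with 5 higher and 5 lower, where 30.7% of all tested genes were higher and 32.2% lower. SMR7, a damage-induced CDK inhibitor, was counted at 0.612, 0.662 and 0.521 CPM in pnet2_ac and 5.002, 6.865 and 4.895 CPM in pnet2_abc (log2 fold change 3.22 ± 0.43, adjusted p = 2.23e-05), and SMR5, of the same family, at 1.03, 1.38 and 0.608 CPM in pnet2_ac and 6.87, 8.01 and 5.59 CPM in pnet2_abc (log2 fold change 2.76 ± 0.35, adjusted p = 1.23e-05). KRP4 was lower, with means of 37.9 to 14.4 CPM (-1.40). Of 20 DNA damage response genes, which include SMR5 and SMR7, 10 were higher and 5 lower (median 0.31). ANAC044, a transcription factor of the damage checkpoint, was counted at 2.15, 2.17 and 3.55 CPM in pnet2_ac and 29.5, 36.65 and 36.3 CPM in pnet2_abc (log2 fold change 3.71 ± 0.21, adjusted p = 5.76e-09). GMI1, a gene induced by gamma radiation and involved in recombination, was counted at 3.79, 6.21 and 5.53 CPM in pnet2_ac and 53.9, 61.6 and 60.5 CPM in pnet2_abc (log2 fold change 3.51 ± 0.16, adjusted p = 9.23e-10). PARP2 and BRCA1 were higher as well (1.68 and 0.84), whereas the kinases ATM and ATR were lower (-0.41 and -0.88). SOG1, the central transcription factor of this response, was not called (12.4 and 10.3 CPM).

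Of 17 tested genes for lamina, SUN, KASH and RanGAP proteins of the nuclear envelope, 7 were higher and 6 lower (median -0.07). These counts lie near the 30.7% higher and 32.2% lower among all genes. WIP1, a KASH protein of the outer nuclear membrane, fell most, from a level that was high only in pnet2_ac and is described with the pnet2_ac changes. WIP2, its relative, was counted at 22.5, 18.5 and 24.3 CPM in pnet2_ac and 8.64, 7.01 and 7.91 CPM in pnet2_abc (log2 fold change -1.47 ± 0.11, adjusted p = 8.88e-08), whereas WIP3 was not called. The main lamina gene CRWN1 was counted at 131, 119.6 and 121 CPM in pnet2_ac and 61.9, 53.05 and 62.3 CPM in pnet2_abc (log2 fold change -1.07 ± 0.081, adjusted p = 8.53e-08). CRWN3 was slightly higher (0.21), and CRWN2 and CRWN4 were not called. All of SUN1 to SUN4, inner membrane partners of the KASH proteins, were higher, from 0.35 for SUN2 to 1.19 for SUN4, while SUN5 was not called.

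Of 21 nuclear pore genes tested, 7 were higher and 5 lower (median 0.10), near the 30.7% higher and 32.2% lower among all genes, but a few members changed strongly. NUP98B, which encodes a pore protein with FG repeats, was counted at 10.1, 6.80 and 8.69 CPM in pnet2_ac and 439.8, 533.5 and 474 CPM in pnet2_abc (log2 fold change 5.82 ± 0.18, adjusted p = 5.41e-11). RAE1, which encodes an mRNA export factor that binds NUP98 in other organisms, was counted at 27.1, 30.2 and 28.3 CPM in pnet2_ac and 287, 351.5 and 318 CPM in pnet2_abc (log2 fold change 3.48 ± 0.10, adjusted p = 5.25e-11). For both, every triple-mutant library lay far above every pnet2_ac library, where 70.0% of all tested genes did not overlap. The paralog NUP98A rose by little, from 86.45 to 105 CPM (0.28). NDC1, a membrane protein that anchors pores, and GLE1, an mRNA export factor, were also higher (1.34 and 1.16). The 9 genes not called, among them NUP62, NUP136 and NUP160, had log2 fold changes between -0.19 and 0.20.

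**Figure D3:**
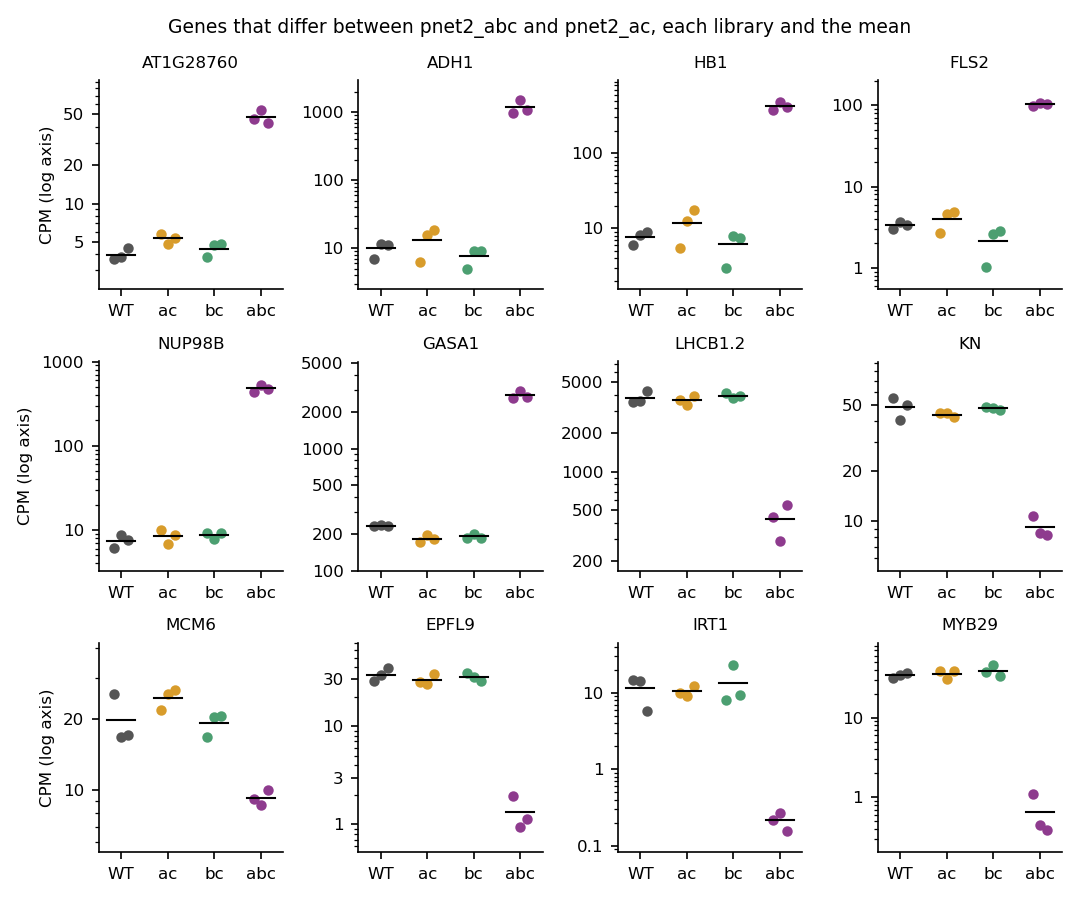
Each panel shows 1 gene in the 4 genotypes, with a point per library (3 a genotype), a bar at the mean and CPM on a log axis whose range differs between panels. The abc points lie apart from those of the other genotypes in these 12 genes. AT1G28760, ADH1, HB1, FLS2, NUP98B and GASA1 are higher in abc, and LHCB1.2, KN, MCM6, EPFL9, IRT1 and MYB29 lower.

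Immune genes were higher in the triple mutant. Of 24 pattern-triggered immunity genes, 19 were called higher and none lower (median 2.16), where 30.7% of all genes were higher. FLS2, the receptor for bacterial flagellin, was counted at 2.69, 4.58 and 4.81 CPM in pnet2_ac and 97.6, 108 and 103 CPM in pnet2_abc (log2 fold change 4.69 ± 0.30, adjusted p = 1.71e-08). NHL10, a membrane protein gene used as a marker of this response, was counted at 1.28, 0.477 and 0.579 CPM in pnet2_ac and 16.1, 17.5 and 16.5 CPM in pnet2_abc (log2 fold change 4.39 ± 0.40, adjusted p = 4.84e-07), and FRK1, a receptor-like kinase marker, at 2.24, 0.768 and 2.69 CPM in pnet2_ac and 21.2, 19.7 and 29.85 CPM in pnet2_abc (log2 fold change 3.63 ± 0.45, adjusted p = 1.06e-05). No pnet2_ac library reached the lowest triple-mutant library in these 3, where 70.0% of all tested genes did not overlap. WRKY33 and WRKY53, defence transcription factors, had mean levels of 24.55 to 183 CPM and 5.36 to 57.9 CPM. The NADPH oxidase RBOHD, which makes the oxidative burst, and the kinase BIK1 were higher too (1.70 and 2.19). The receptors RLP23 and PEPR2 were not called.

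Of 21 salicylic acid genes, 15 were higher and 3 lower (median 1.95), where 30.7% of all tested genes were higher. SARD1 and CBP60g, the transcription factors that switch on salicylic acid synthesis, had means of 3.035 to 58.0 CPM and 6.21 to 53.1 CPM (4.23 and 3.09). ICS1, the main synthesis enzyme, rose less (0.57). PR1, the classic output marker, was counted at 15.9, 0.106 and 0.463 CPM in pnet2_ac and 156, 215 and 140.4 CPM in pnet2_abc (log2 fold change 4.90 ± 1.45, adjusted p = 0.00958). Replicate 1 of pnet2_ac held most of that group's PR1, and the same spread was seen in pnet2_bc (16.05, 1.48 and 0.179 CPM). PR5, another output gene, was lower (6.12 to 0.885 CPM, -2.79), as was the receptor NPR4 (-1.13), while NPR3 was higher (2.27) and PR2 was not called. ALD1, which makes pipecolic acid, was counted at 0.8215, 0.477 and 0.3475 CPM in pnet2_ac and 0, 0 and 0.0482 CPM in pnet2_abc and called lower (log2 fold change -4.89 ± 1.41, adjusted p = 0.00841). Of 11 genes of camalexin and tryptophan metabolism, 6 were higher and 1, CYP79B3, lower (-1.52).

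The W-box (TTGACC or TTGACT, both strands), bound by WRKY factors, stood in 17 of 24 pattern-triggered immunity promoters (70.8%) and 6 of 21 salicylic acid promoters (28.6%), against 32.9% of all promoters. The 250 bases before the start of NHL10 hold 1 W-box, in capitals as GGTCAA on this strand.
NHL10 (chr2:15110242-15110491, plus strand): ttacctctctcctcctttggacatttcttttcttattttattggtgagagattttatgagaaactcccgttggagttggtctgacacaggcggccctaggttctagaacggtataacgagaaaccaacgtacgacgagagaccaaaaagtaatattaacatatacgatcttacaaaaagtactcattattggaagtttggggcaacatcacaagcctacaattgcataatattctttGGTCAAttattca

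Jasmonate genes were higher at 18 of 25 and lower at 3 (median 1.51), where 30.7% of all tested genes were higher. They include enzymes of synthesis, with LOX4, a lipoxygenase, at means of 3.04 to 59.3 CPM (4.28), LOX3 (3.58) and AOC3 (2.86). The transcription factor MYC2 was counted at 27.9, 27.9 and 19.65 CPM in pnet2_ac and 90.7, 99.0 and 59.1 CPM in pnet2_abc (log2 fold change 1.72 ± 0.19, adjusted p = 3.15e-06). JAZ repressors, which are both targets and brakes of the pathway, were higher for JAZ1, JAZ2, JAZ5, JAZ6, JAZ7, JAZ8 and JAZ10 and lower for JAZ9 (-1.17). JAZ1 was counted at 9.32, 6.73 and 6.44 CPM in pnet2_ac and 101, 154 and 102 CPM in pnet2_abc (log2 fold change 3.98 ± 0.23, adjusted p = 5.99e-09), and JAZ8, which is barely expressed in pnet2_ac, at 0.166, 0 and 0.174 CPM in pnet2_ac and 3.12, 3.49 and 3.09 CPM in pnet2_abc (log2 fold change 4.79 ± 1.32, adjusted p = 0.00628). Not all outputs went this way. The wound protein gene VSP1 was lower (12.35 to 3.11 CPM, -1.99), VSP2 was not called, and the defensin PDF1.2 had 0 counts in pnet2_abc against 0.367, 0.689 and 0.898 CPM in pnet2_ac, at least 45.5-fold lower against 3 counts over the group.

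CACGTG, the G-box bound by MYC and ABA-response factors and its own reverse complement, stood in 5 of 25 jasmonate promoters (20%) and 4 of 26 abscisic acid promoters (15.4%), against 8.57% of all promoters. JAZ8 has 1, close to its start, shown in capitals in the 250 bases before it.
JAZ8 (chr1:10596102-10596351, plus strand): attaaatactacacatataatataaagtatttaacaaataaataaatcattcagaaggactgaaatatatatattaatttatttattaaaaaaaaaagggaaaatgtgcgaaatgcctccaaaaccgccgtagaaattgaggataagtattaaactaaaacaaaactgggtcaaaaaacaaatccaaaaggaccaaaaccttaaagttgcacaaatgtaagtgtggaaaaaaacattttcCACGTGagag

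Genes of the low-oxygen response were higher at 16 of 18 and lower at none (median 2.45), although all plants grew untreated. The share of all tested genes that were higher was 30.7%. ADH1, the alcohol dehydrogenase of fermentation, was counted at 6.22, 15.5 and 18.3 CPM in pnet2_ac and 967, 1484 and 1071 CPM in pnet2_abc (log2 fold change 6.47 ± 0.43, adjusted p = 2.32e-08). HB1, a plant haemoglobin, was counted at 5.51, 12.5 and 17.5 CPM in pnet2_ac and 376.5, 488 and 415 CPM in pnet2_abc (log2 fold change 5.18 ± 0.43, adjusted p = 2.05e-07), and PDC1, pyruvate decarboxylase, at 1.82, 5.365 and 6.49 CPM in pnet2_ac and 204, 341 and 212 CPM in pnet2_abc (log2 fold change 5.81 ± 0.52, adjusted p = 4.65e-07). Replicate 1 was the lowest of the 3 pnet2_ac libraries in each, yet the gap to pnet2_abc was far wider than that spread. PCO1 and PCO2, enzymes that mark oxygen-labile transcription factors for breakdown, were also higher (3.09 and 3.42), as was the factor HRE2 (3.84). HRA1, a repressor of the response, was not called.

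Genes answering to mitochondrial and oxidative stress were higher at 11 of 21 and lower at 2 (median 1.68). Among all tested genes 30.7% were higher and 32.2% lower. OM66, an outer mitochondrial membrane protein gene, was counted at 2.66, 2.199 and 2.75 CPM in pnet2_ac and 143, 166 and 146 CPM in pnet2_abc (log2 fold change 5.90 ± 0.27, adjusted p = 1.04e-09). AOX1A, the alternative oxidase, had means of 19.8 to 129 CPM (2.70), and the zinc-finger genes ZAT10 and ZAT12 were higher (4.77 and 4.26). NDA1, a light-dependent NADH dehydrogenase, and CAT2, the catalase of photorespiration, were the 2 that were lower (-3.91 and -1.62). Genes of the unfolded protein response were higher at 16 of 21 and lower at none, by less (median 0.63). NAC103, a target of bZIP60, was counted at 2.325, 2.33 and 2.78 CPM in pnet2_ac and 22.9, 26.3 and 23.7 CPM in pnet2_abc (log2 fold change 3.29 ± 0.29, adjusted p = 4.11e-07), and bZIP60 had means of 35.2 to 125 CPM (1.83). BIP1 and BIP2, chaperones of the endoplasmic reticulum, rose by 0.69 and 0.63 on the log2 scale, and BIP3 was not called.

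Senescence genes and stress NAC factors were higher at 13 of 20 and lower at 4 (median 1.45). All tested genes were higher at 30.7% and lower at 32.2%. ORE1, a regulator of leaf senescence, was counted at 6.71, 5.87 and 9.19 CPM in pnet2_ac and 64.0, 62.3 and 75.3 CPM in pnet2_abc (log2 fold change 3.21 ± 0.21, adjusted p = 2.01e-08), and SAG13 had means of 13.7 to 242 CPM (4.14). NYC1 and PAO, enzymes that break chlorophyll down, were higher (1.48 and 1.43). The sugar-starvation genes DIN6 and DIN10 and the dark-induced SEN1 were lower (-1.75, -1.35 and -1.18). Heat shock genes were higher at 4 of 19 and lower at 6 (median -0.46), and abscisic acid genes higher at 9 of 26 and lower at 7 (median 0.15), shares near those of all genes or below them.

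Auxin response genes were lower at 22 of 32 and higher at 2 (median -1.82), against 32.2% lower and 30.7% higher among all tested genes. IAA3 and IAA14, repressors induced by auxin, had means of 55.4 to 4.95 CPM and 17.0 to 1.40 CPM (-3.48 and -3.60). SAUR20, which promotes cell expansion, was counted at 4.75, 3.83 and 3.04 CPM in pnet2_ac and 0, 0.284 and 0.386 CPM in pnet2_abc (log2 fold change -4.09 ± 0.56, adjusted p = 2.79e-05), and SAUR19 and SAUR21 to SAUR24 were lower as well. These SAUR genes are close copies next to each other, so the split of reads between them is uncertain. The auxin carrier PIN3 was lower (-1.95), and the conjugating enzymes GH3.5 and GH3.3 were the 2 that were higher (1.06 and 0.71). Genes that loosen or build the wall were split, 10 of 25 higher and 11 lower. XTH24, a xyloglucan-modifying enzyme, was counted at 44.2, 43.65 and 48.8 CPM in pnet2_ac and 983, 1109 and 1065 CPM in pnet2_abc (log2 fold change 4.53 ± 0.10, adjusted p = 2.55e-11), whereas EXPA8, an expansin, had means of 14.2 to 1.685 CPM (-3.06).

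Against 30.7% higher and 32.2% lower among all tested genes, markers of cell types shifted unevenly. Stomatal lineage markers were lower at 15 of 16 (median -1.42), and their summed level was 2140 to 2462 CPM in pnet2_ac and 270.7 to 312.8 CPM in pnet2_abc, most of it BCA1, a carbonic anhydrase also found in mesophyll (2104 to 229.9 CPM). EPFL9 (STOMAGEN), the signal from mesophyll that promotes stomata, was counted at 28.1, 26.9 and 33.95 CPM in pnet2_ac and 1.935, 0.936 and 1.13 CPM in pnet2_abc (log2 fold change -4.47 ± 0.23, adjusted p = 2.08e-09). SPCH, the factor that starts the lineage, had means of 10.6 to 2.09 CPM (-2.33), while the guard cell anion channel SLAC1 was not called (1.26 and 1.34 CPM). Xylem and secondary wall markers were lower at 10 of 13 and higher at none (median -1.68), with a summed level of 76.2 to 125.5 CPM in pnet2_ac and 36.1 to 48.7 CPM in pnet2_abc. Leaf epidermis and trichome markers were lower at 7 and higher at 4 of 15, with the trichome patterning gene TRY counted at 2.99, 2.46 and 2.82 CPM in pnet2_ac and 0.204, 0 and 0.0482 CPM in pnet2_abc (log2 fold change -5.01 ± 0.62, adjusted p = 9.74e-06).

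Root markers were called less often than all tested genes, of which 30.7% were higher and 32.2% lower. Calls were rarer among weakly expressed genes (10.4% higher and 13.2% lower under 1 CPM), and the part of level in the root markers was not tested. Root identity markers were lower at 5 of 18 and higher at none (median -0.22, summed 117.5 to 143.4 CPM against 77.3 to 86.8 CPM), and SHR, a radial patterning factor, had means of 15.45 to 5.04 CPM (-1.61). Root hair markers were higher at 2 of 15 and lower at none, with summed levels that overlapped (29.3 to 63.1 CPM and 41.05 to 68.1 CPM). No marker of the stomatal, xylem, epidermis, root hair or root identity lists had a count of 0 over the libraries of either genotype. Meristem and boundary markers were higher at 4 and lower at 5 of 17, both below the shares of all genes. CUC1, a boundary gene, was counted at 0.446, 0.291 and 0.217 CPM in pnet2_ac and 8.695, 12.3 and 11.3 CPM in pnet2_abc (log2 fold change 5.05 ± 0.45, adjusted p = 4.05e-07), while STM, the meristem gene, was not called and WUS had no count in pnet2_ac. Shoot and root markers were thus present in both genotypes, as the tissue label says. Seed maturation markers stayed near 0, with summed levels of 0.869 to 3.52 CPM and 2.85 to 5.55 CPM. Of these, 10 of 17 passed the filter, 3 were called higher, and 6 of the 17, storage proteins, had no count in pnet2_ac. The part of tissue makeup in the gene differences was not tested.

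Nutrient and secondary metabolism genes gave some of the deepest falls. Genes of iron homeostasis, a list of uptake, storage and regulatory genes, were lower at 13 of 19 and higher at 3 (median -1.35), where 32.2% of all genes were lower. IRT1, the root iron transporter, was counted at 9.92, 9.21 and 12.4 CPM in pnet2_ac and 0.218, 0.2695 and 0.157 CPM in pnet2_abc (log2 fold change -5.62 ± 0.53, adjusted p = 7.16e-07). FIT, the factor that drives it, and FRO2, the ferric reductase beside it, had means of 6.705 to 1.37 CPM and 4.56 to 0.583 CPM (-2.296 and -2.96). The ferritin FER3 was slightly higher (0.40). Aliphatic glucosinolate genes, which make methionine-derived defence compounds, were lower at 16 of 17 and higher at none (median -2.23). MYB29, a regulator of them, was counted at 38.1, 30.2 and 38.8 CPM in pnet2_ac and 1.09, 0.454 and 0.386 CPM in pnet2_abc (log2 fold change -5.802 ± 0.28, adjusted p = 1.69e-09), and MYB76, its relative, had 0 counts in pnet2_abc against 1.95, 0.980 and 1.535 CPM in pnet2_ac, at least 118-fold lower. CYP79F1, the first committed enzyme, had means of 76.1 to 5.37 CPM (-3.82).

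Against 30.7% higher and 32.2% lower among all genes, phosphate starvation genes were near the overall shares, with 6 higher and 6 lower of 17. More anthocyanin and flavonol genes were called, 7 higher and 9 lower of 18. Among them, late anthocyanin genes such as DFR (1.62) and LDOX (1.12) were higher, and the flavonol synthase FLS1 was lower (-1.51). Clock genes were lower at 9 and higher at 5 of 21. The morning genes CCA1 and LHY were lower (-1.34 and -1.03), PRR5 was higher (4.19), and the sources used here do not give the hour at which seedlings were taken. Cytokinin response genes, 5 higher and 4 lower of 15, were again near the overall shares.

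By difference in CPM, the largest gains were in AT3G41768, a ribosomal RNA gene, and in NIT1, EARLI1, GASA1 and PRXCB. NIT1, a nitrilase, was counted at 907, 803 and 945 CPM in pnet2_ac and 3825, 4209 and 4591 CPM in pnet2_abc (log2 fold change 2.25 ± 0.076, adjusted p = 9.70e-11). EARLI1, a lipid-transfer-like cell wall protein, was counted at 73.2, 83.1 and 123 CPM in pnet2_ac and 2471, 3122 and 2943 CPM in pnet2_abc (log2 fold change 4.93 ± 0.23, adjusted p = 1.16e-09), and PRXCB, a cell wall peroxidase, at 100.2, 81.0 and 78.75 CPM in pnet2_ac and 2092, 2592 and 2545 CPM in pnet2_abc (log2 fold change 4.80 ± 0.17, adjusted p = 1.31e-10). GASA1, a small gibberellin-responsive peptide, was counted at 172, 195 and 182 CPM in pnet2_ac and 2597, 2997 and 2675 CPM in pnet2_abc (log2 fold change 3.91 ± 0.073, adjusted p = 3.12e-12). In each the lowest triple-mutant library was above the highest pnet2_ac library, where 70.0% of all tested genes did not overlap. The largest losses were all photosynthesis genes, namely RBCS1A, RBCS3B, LHCB1.3, LHCB1.1 and RCA.

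The changes that pnet2_ac itself carried against WT were then followed into the triple mutant. All values of this step share libraries (pnet2_ac enters both differences), so the counts are descriptions. Of the 266 genes called between pnet2_ac and WT, 105 were higher (0.450% of those tested) and 161 lower (0.690%), and 49 were at least 2-fold apart. A change was taken as absent where pnet2_abc was called against pnet2_ac in the opposite direction and no longer called against WT in the pnet2_ac direction. It was partly kept where pnet2_abc was still called against WT in that direction, kept where pnet2_abc was called against WT but not against pnet2_ac, and extended where the triple mutant went further the same way.

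By these definitions 60 of the 266 changes were absent in the triple mutant, 9 partly kept, 35 kept and 162 extended. Of the 60 absent, 33 were at WT level and 27 had gone past it, and 13 had been at least 2-fold in pnet2_ac. Those higher in pnet2_ac numbered 33, with median log2 values of 0.51 for pnet2_ac over WT and -0.12 for pnet2_abc over WT. The other 27 had -0.46 and 0.43. Of the extended changes, 114 were lower in pnet2_ac (median -0.49) and lay at a median of -1.88 in the triple mutant against WT, and 48 were higher (0.64 and 2.19). The shares are read against all tested genes, of which 30.7% were called higher and 32.2% lower in pnet2_abc against pnet2_ac (62.9% in all). An absent or partly kept change needs a call in 1 of these directions. Of the 105 genes higher in pnet2_ac, 33 were absent and 5 partly kept, to be set beside 32.2% of all genes lower. Of the 161 genes lower in pnet2_ac, 27 were absent and 4 partly kept, beside 30.7% of all genes higher. The number of absent changes is thus no sign of a reversal particular to these genes. These counts depend on which libraries are in the fit. Leaving out WT replicate 1, 2 or 3 gave 79, 90 or 59 pnet2_ac changes with 17, 18 or 17 absent, and leaving out pnet2_ac replicate 1, 2 or 3 gave 91, 129 or 71 with 27, 29 or 16 absent.

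**Figure D4:**
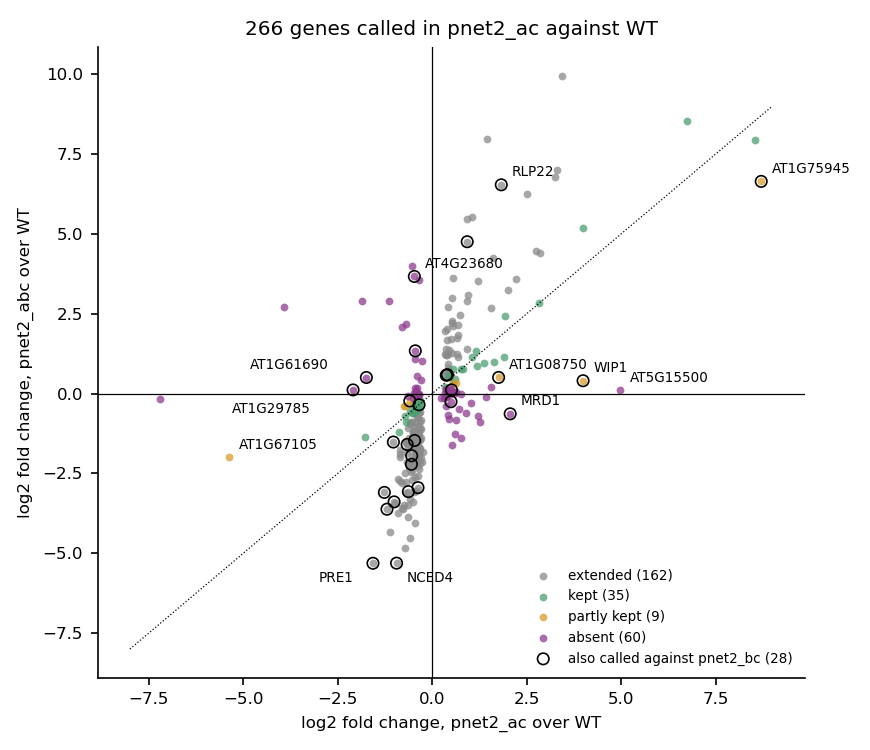
Each point is 1 of the 266 genes called between pnet2_ac and WT, with the log2 fold change of pnet2_ac over WT on the x axis and of pnet2_abc over WT on the y axis. The dotted line marks equal changes, and circles mark the 28 genes also called against pnet2_bc in the same direction. Absent changes (60, purple) lie near or across the horizontal axis, and extended ones (162, grey) lie beyond the dotted line.

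Among the 60 absent changes were genes for the nucleolus and ribosome assembly. FIB2, a fibrillarin that modifies ribosomal RNA, was counted at 83.7, 89.3 and 84.0 CPM in WT, 111, 133 and 121 CPM in pnet2_ac and 85.9, 97.5 and 94.7 CPM in pnet2_abc. NOP56, of the same particles, had means of 177 CPM in WT, 225.5 in pnet2_ac, 190.1 in pnet2_bc and 178 in pnet2_abc. NAP57, the dyskerin homologue that makes pseudouridine, had means of 136 CPM in WT, 176 in pnet2_ac, 145 in pnet2_bc and 126 in pnet2_abc. NSN1, a nucleolar GTPase, had means of 72.8 CPM in WT, 97.45 in pnet2_ac, 83.9 in pnet2_bc and 72.95 in pnet2_abc. Each was modestly higher in pnet2_ac and back near WT in the triple mutant. HDA3, a histone deacetylase of the nucleolus, and FKBP53, a histone chaperone, followed the same course (91.7, 119 and 102 CPM, and 57.0, 70.9 and 51.8 CPM in WT, pnet2_ac and pnet2_abc). These genes were singled out after their values were seen, so their number is no result about the nucleolus. A list was then taken by product name, with search words that include fibrillarin, NOP56 and NAP57, already seen to change. Its counts are thus no independent result. This list, of 29 tested nucleolar and ribosome assembly genes, held 6 of the 60 absent changes found among all 23330 tested genes. It had 7 higher and none lower in pnet2_ac against WT, where 0.450% of all genes were higher. In pnet2_abc against pnet2_ac, 3 were higher and 15 lower (median -0.27), where 30.7% of all genes were higher and 32.2% lower. Its median for pnet2_abc against WT was -0.01. NUC-L1, a nucleolin, was among the kept changes (298, 379.7 and 347 CPM), and its relative NUC-L2 was higher in the triple mutant (2.86 to 17.36 CPM, 2.60).

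Genes of sulfate uptake and assimilation were also among the absent changes, and were likewise picked after their values were seen. APR1, which reduces activated sulfate on the way to cysteine, was counted at 135, 118 and 142 CPM in WT, 202, 202 and 194 CPM in pnet2_ac and 51.7, 54.1 and 56.8 CPM in pnet2_abc. Its paralogs followed, APR2 with means of 379.7 CPM in WT, 509 in pnet2_ac, 489 in pnet2_bc and 240.1 in pnet2_abc, and APR3 with 177 CPM in WT, 274 in pnet2_ac, 269 in pnet2_bc and 98.7 in pnet2_abc. LSU2, a gene induced by low sulfur, had means of 25.65 CPM in WT, 43.5 in pnet2_ac, 39.1 in pnet2_bc and 9.83 in pnet2_abc. Mean levels of these 4 genes in pnet2_bc were close to those in pnet2_ac. SULTR1;2, the root sulfate transporter, had 42.6, 36.2 and 29.5 CPM in WT, 61.1, 56.6 and 50.7 CPM in pnet2_ac and 36.2, 37.9 and 38.95 CPM in pnet2_abc. A list of 28 such genes was taken by product name, with APS2, APS3 and APS4 added by gene ID. It was made with values known, so its counts are descriptions. The list held 6 of the 60 absent changes found among all 23330 tested genes. Of these 6, 5 were below WT in the triple mutant and SULTR1;2 was at WT level. It had 7 higher and none lower in pnet2_ac against WT, where 0.450% of all genes were higher. In pnet2_abc against pnet2_ac, 5 were higher and 18 lower (median -0.68), where 30.7% and 32.2% of all genes were. SULTR3;2 was 1 of the 5 that were higher (2.57 to 16.65 CPM).

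Other absent changes were larger in pnet2_ac. AT5G15500, an ankyrin repeat gene, was counted at 0, 0.0726 and 0.270 CPM in WT, 6.54, 1.70 and 2.56 CPM in pnet2_ac, 5.99, 5.06 and 3.93 CPM in pnet2_bc and 0.1635, 0.0567 and 0.145 CPM in pnet2_abc. Both double mutants were thus high and the triple mutant was not. UMAMIT36, a transporter gene, ASPGB1, an asparaginase, and CYP702A5, a cytochrome P450, were higher in pnet2_ac by 1.56, 1.26 and 1.21 on the log2 scale and lower again in the triple mutant (-1.37, -2.15 and -1.91 against pnet2_ac). In the other direction AT1G53625, an uncharacterized gene, had means of 4.08 CPM in WT, 1.12 in pnet2_ac, 0.988 in pnet2_bc and 30.7 in pnet2_abc. NIA2, nitrate reductase, had means of 1797 CPM in WT, 1346 in pnet2_ac, 1491 in pnet2_bc and 1826 in pnet2_abc, a fall in pnet2_ac that was gone in pnet2_abc. AT1G67105, a noncoding RNA gene, was partly kept, at 31.55, 65.7 and 13.2 CPM in WT, 0.7865, 0.609 and 1.26 CPM in pnet2_ac and 8.74, 8.23 and 10.7 CPM in pnet2_abc, with WT libraries that differ widely among themselves.

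Other changes of pnet2_ac were kept, with no call between the mutants. RLP23, a receptor of pattern-triggered immunity, was counted at 0.158, 0.174 and 0.459 CPM in WT, 3.03, 0.795 and 1.77 CPM in pnet2_ac and 1.31, 2.03 and 2.39 CPM in pnet2_abc, with a log2 fold change of 0.03 ± 0.54 between the mutants. BCA6, a carbonic anhydrase, had means of 41.1 CPM in WT, 32.3 in pnet2_ac, 42.7 in pnet2_bc and 32.2 in pnet2_abc. SAUR15, an auxin-responsive gene, had a log2 fold change of -1.79 for pnet2_ac over WT and was not called between the mutants (0.44 ± 0.28). Among changes that went further, CRK6, a receptor-like kinase gene, had means of 0.270 CPM in WT, 1.515 in pnet2_ac, 0.888 in pnet2_bc and 20.4 in pnet2_abc. RD20, a caleosin induced by drought, had means of 5.71 CPM in WT, 26.3 in pnet2_ac, 43.4 in pnet2_bc and 68.0 in pnet2_abc.

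Changes particular to pnet2_ac, meaning called against both WT and pnet2_bc in the same direction, numbered 28, with 10 higher and 18 lower. Of these, 7 were absent in the triple mutant, 4 partly kept, 1 (BCA6) kept and 16 extended. Each mutant is represented by 1 line name, so a trait of the pnet2_ac line and an effect of its mutations cannot be told apart. The number rests on single libraries of pnet2_bc as well. Leaving out pnet2_bc replicate 1, 2 or 3 gave 5, 12 or 10 such genes with 2 absent each time, WT replicate 1, 2 or 3 gave 12, 13 or 14 with 4 absent, and pnet2_ac replicate 2 or 3 gave 5 or 8 with 2 absent, whereas leaving out pnet2_ac replicate 1 gave 28 with 8 absent.

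WIP1 (chr4:13365283-13367531, plus strand in TAIR10.1) had the smallest adjusted p among them, for pnet2_ac against WT. It was counted at 21.11, 22.45 and 18.1 CPM in WT, 20.22, 21.7 and 20.75 CPM in pnet2_bc, 290.4, 384 and 305.5 CPM in pnet2_ac and 27.6, 24.6 and 29.2 CPM in pnet2_abc. The high level of pnet2_ac was thus nearly absent from the pnet2_abc libraries (log2 fold change -3.59 ± 0.12, adjusted p = 9.84e-11). The small rest of pnet2_abc over WT was still called (log2 fold change 0.40 ± 0.11, adjusted p = 0.00647), so WIP1 counts as partly kept. Whether the high level belongs to the pnet2_ac line itself was not tested. The neighbouring gene AT4G26450 had 47.5, 45.9 and 48.0 CPM in pnet2_ac and 44.9, 47.45 and 41.7 CPM in WT, and reached 75.65, 67.4 and 71.4 CPM in pnet2_abc. AT4G26460, on the other side, had at most 0.119 CPM in a pnet2_ac library and 7.005, 13.2 and 8.54 CPM in pnet2_abc. The 250 bases before its start are given for context, with every match in them to the motifs searched above (E2F, AACGG, W-box, G-box and I-box, both strands) in capitals, 1 each of AACGG, the W-box (as GGTCAA) and the G-box.
WIP1 (chr4:13365033-13365282, plus strand): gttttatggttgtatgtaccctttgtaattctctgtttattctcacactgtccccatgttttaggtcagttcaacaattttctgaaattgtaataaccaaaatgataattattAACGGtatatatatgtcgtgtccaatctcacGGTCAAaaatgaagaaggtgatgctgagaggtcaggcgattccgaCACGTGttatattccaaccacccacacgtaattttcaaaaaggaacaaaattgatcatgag

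AT1G75945, an uncharacterized gene (chr1:28515245-28515916, minus strand), was also partly kept. It had 0, 0.08715 and 0 CPM in WT, 0.487, 0.204 and 0.207 CPM in pnet2_bc, 11.9, 12.5 and 12.2 CPM in pnet2_ac and 2.63, 3.49 and 2.63 CPM in pnet2_abc (log2 fold change -2.06 ± 0.41, adjusted p = 6.86e-04). AT1G08750, a peptidase of family C13, had 10.35, 10.6 and 11.4 CPM in WT, 33.0, 26.7 and 49.5 CPM in pnet2_ac and 16.35, 15.1 and 14.3 CPM in pnet2_abc (log2 fold change -1.25 ± 0.17, adjusted p = 2.53e-05), with pnet2_ac libraries that spread more than the others. AT5G03120 completed the partly kept genes, with means of 22.9 CPM in WT, 15.2 in pnet2_ac, 21.9 in pnet2_bc and 19.5 in pnet2_abc.

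MRD1, a gene first described in a methionine-overaccumulating mutant, was absent in the triple mutant. It was counted at 10.1, 11.6 and 12.9 CPM in WT, 0.2705, 1.045 and 0.331 CPM in pnet2_bc, 42.95, 48.7 and 53.0 CPM in pnet2_ac and 9.445, 6.67 and 6.20 CPM in pnet2_abc (log2 fold change -2.70 ± 0.30, adjusted p = 3.32e-06). The order of the genotypes was therefore pnet2_ac, WT, pnet2_abc and pnet2_bc, with no overlap between neighbours, although WT and pnet2_abc were not called apart (adjusted p = 0.0664). A gene on the opposite strand covers 1446 of its bases, and since the strand setting of the counting is not given, reads from both cannot be told apart. AT1G29785, a noncoding RNA, was at WT level in pnet2_abc, with 6.04, 9.22 and 2.59 CPM in WT, 1.64, 0.927 and 1.59 CPM in pnet2_ac and 6.80, 6.55 and 5.94 CPM in pnet2_abc. It overlaps an opposite-strand gene over 666 bases and a same-strand gene over 169, so its counts are uncertain. FIB2, described above, was the third gene at WT level (log2 fold change -0.40 ± 0.084, adjusted p = 0.0011).

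The other 4 absent genes had gone past WT. AT1G61690, a phosphoinositide binding protein gene (chr1:22782427-22786942, minus strand), was counted at 36.1, 30.3 and 25.8 CPM in WT, 35.4, 31.3 and 36.8 CPM in pnet2_bc, 10.4, 7.935 and 9.19 CPM in pnet2_ac and 45.5, 40.3 and 44.7 CPM in pnet2_abc (log2 fold change 2.25 ± 0.13, adjusted p = 7.85e-09). The pnet2_ac libraries were the low ones. RPL3B, a ribosomal protein gene, had 46.3, 47.15 and 49.75 CPM in WT, 65.6, 64.95 and 71.5 CPM in pnet2_ac and 40.5, 42.0 and 37.4 CPM in pnet2_abc (log2 fold change -0.75 ± 0.073, adjusted p = 9.65e-07). MUM2, a galactosidase that trims cell wall pectin in seed mucilage, had means of 40.9 CPM in WT, 29.98 in pnet2_ac, 44.5 in pnet2_bc and 103 in pnet2_abc. AT4G23680, a polyketide cyclase family gene, had 99.95, 100.1 and 99.75 CPM in WT, 76.9, 71.85 and 67.05 CPM in pnet2_ac and 1229, 1355 and 1221 CPM in pnet2_abc (log2 fold change 4.14 ± 0.079, adjusted p = 3.12e-12), and its rise in the triple mutant was far larger than its fall in pnet2_ac.

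Of the 16 pnet2_ac-specific changes that were extended, MYBL2, a repressor of anthocyanin genes, was counted at 35.2, 36.7 and 32.6 CPM in WT, 13.0, 12.4 and 18.1 CPM in pnet2_ac and 3.98, 3.12 and 5.10 CPM in pnet2_abc. NCED4, a carotenoid cleavage enzyme of plastids, had 141, 140.2 and 125 CPM in WT, 76.7, 66.5 and 67.7 CPM in pnet2_ac and 3.325, 4.03 and 2.89 CPM in pnet2_abc. Both fell stepwise from WT to pnet2_ac to pnet2_abc with no overlap. RLP22, a receptor-like protein gene, rose the same way, with means of 0.306 CPM in WT, 1.08 in pnet2_ac, 0.340 in pnet2_bc and 28.5 in pnet2_abc. PRE1, a growth-promoting helix-loop-helix gene, fell, with means of 4.50 CPM in WT, 1.51 in pnet2_ac, 5.21 in pnet2_bc and 0.113 in pnet2_abc.

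**Figure D5:**
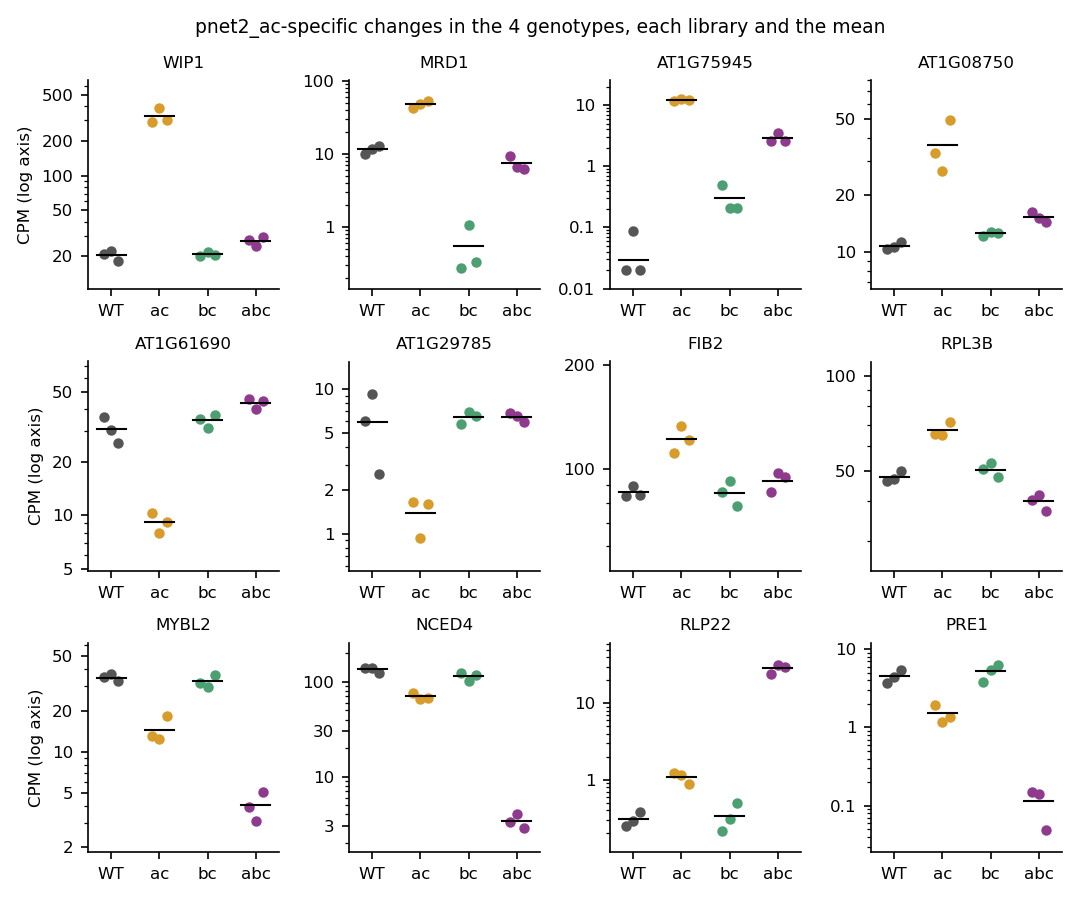
Each panel shows 1 gene whose change was particular to pnet2_ac, with a point per library (3 a genotype), a bar at the mean and CPM on a log axis whose range differs between panels. The top row and the middle row are changes partly kept or absent in abc, and the bottom row changes that abc extends. The 2 WT libraries of AT1G75945 with no count are drawn at the bottom of the axis.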

How the data were processed

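Titles of the samples gave each library its genotype and replicate number. Per the labels' protocols, total RNA of the seedlings went into strand-specific mRNA libraries, read as pairs on an Illumina HiSeq. The deposited count table holds whole-number counts per gene, not normalized, for 27436 genes. Per the submitters' processing notes, TAIR10, HISAT2 2.0.4 and HTSeq 0.6.1p1 were used, but the notes used here give neither their roles nor the strand setting. The deposited TPM values, from kallisto by the table's name, entered only as an alternative.

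Counts were analysed with edgeR 4.0.16 in R 4.3.3. Genes were kept by filterByExpr and scaled by TMM, and a quasi-likelihood fit with 1 term for each of the 4 genotypes took in all 12 libraries (8 residual degrees of freedom). Benjamini-Hochberg adjustment ran over all tested genes in each comparison. Standard errors come from the test statistic. On counts simulated for pnet2_abc against pnet2_ac (22603 genes tested), the test called 22 of 50 genes raised 1.5-fold, 35 of 50 raised 2-fold, 47 of 50 raised 4-fold and 37 of 50 lowered to 0.5-fold, and 9 unchanged genes. Symbols, products, coordinates and promoters come from the RefSeq annotation of TAIR10.1, joined by gene ID. It matched 27173 IDs, and the 263 others are organelle genes.

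The comparison and the 35 gene lists were chosen with earlier results of these data known. Genes named are the 3 DUF2215 genes and the 12 largest called rises and falls averaging at least 5 CPM without overlap of libraries. To these were added the 3 largest called members per list and the 5 largest gains and losses in CPM. Leading genes of each class of pnet2_ac changes were also named. Not all of these genes are printed. Other list members, and the nucleolar and sulfate genes, were picked for mention after their values were seen. A list median is the same with genes at 0 in a group set to their bound. Opposite-strand genes overlap HDA3 (315 bases), WRKY53 (341), MCM7 (437), KN (464), SARD1 (640), IAA3 (640), RRTF1 (661), SLAC1 (775), APR2 (782), KRP4 (926), NUP93A (936), GUN4 (946) and MYC2 (3241), and a same-strand gene overlaps BCA1 (343), so their reads cannot be told apart, and other named genes overlap by less. Figures were drawn with matplotlib 3.10.9 in Python 3.11.15. Alternatives were DESeq2 1.42.0, other scalings and filters, limma 3.58.1 on log2(TPM + pseudocount) with pseudocounts of 1 and 0.1, fits without single libraries and a fit with the replicate number as a block.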

Additional observations from a re-analysis of the deposited data

How the results depend on the processing

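The counts of genes called between pnet2_abc and pnet2_ac moved little when single libraries were left out, and more with the scaling, filter and threshold. Leaving out single libraries gave 13708 to 14842 called, 6626 to 7320 higher, 7065 to 7561 lower and 7021 to 7463 at least 2-fold. A filter of 5 CPM gave 11708 called and 4650 at least 2-fold, with fewer genes tested, and an adjusted p under 0.01 gave 12216 called. Library size alone gave 8324 higher and 6452 lower. On TPM values 8165 to 9303 were higher and 6124 to 6335 lower. The counts drawn from pnet2_ac against WT moved far more. DESeq2 called 1101 pnet2_ac changes, 233 of them absent in the triple mutant, and 203 specific to pnet2_ac with 41 absent. On TPM values with a pseudocount of 1 there were 409 pnet2_ac changes, and without a filter 173, with 34 absent and 13 specific, 4 of these absent. At an adjusted p under 0.01 there were 23, with 7 absent and 5 specific, 3 of these absent. Without WT replicate 1 and pnet2_ac replicate 2 together there were 17, with 3 absent and 4 specific, 1 of these absent. Leaving out single libraries gave 59 to 294 pnet2_ac changes, 16 to 65 absent, 5 to 33 specific and 2 to 8 specific and absent. Beyond fewer genes or samples, the cause was not tested. DESeq2's calls included 59 of the 60 absent genes, and its call of pnet2_ac against WT included all 266.

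No named gene reversed, and 152 of 162 kept their side of the threshold in every alternative run. The exceptions were MGD3, PYE, RHS18, CASP1, PAD3, AT5G10760 and HSP21, whose call was lost in at least 1 alternative, and VSP2, SAUR15 and AT5G47980, which gained one. Deviations of same-numbered pnet2_ac and pnet2_abc libraries correlated at -0.006, 0.005 and 0.049 across all genes. Differently numbered libraries gave -0.044 to 0.038. Whether the numbers mark a batch that acts on some genes was not tested. With the replicate number as a block, 14614 genes were called, with 229 pnet2_ac changes and 49 absent. Depth limits genes near the floor of 3 counts. The self-test missed most 1.5-fold changes, but few of its genes were changed, which makes the adjusted threshold stricter there. It therefore does not give the share found between pnet2_abc and pnet2_ac. An absent or kept class still says little for small changes, since each can rest on a missing call.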
